A study of Homo sapiens with 6 samples.

Results

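The receptors of parathyroid hormone-related protein (PTHrP) were examined in MDA-MB-231 cells in which PTHrP itself was the target of an siRNA. PTHrP, encoded by PTHLH, and 2 receptor genes, PTH1R and PTH2R, were asked for, and every probe set that the array's annotation assigns to one of them alone was taken, however dim. PTH1R and PTH2R had 1 probe set each, which gives 2 of the 3 genes, out of 11963 genes that the array names in all. PTHLH was not analysed here, so the knockdown, which would have checked the labels, is not given. The arrays compared siPTHrP, an siRNA against PTHrP, with siLuc, a control siRNA against firefly luciferase, each introduced by electroporation. MDA-MB-231 is an established human breast cancer line of mesenchymal-like, triple-negative phenotype, and both groups were the same unmodified line, harvested 3 days after transfection. Each of 3 independent experiments gave 1 siPTHrP and 1 siLuc RNA, so that each group held 3 Affymetrix human U133 arrays of type A. With so few arrays the precision of each value is limited. The knockdown was transient and its depth is not known here.

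PTHrP is made as a precursor, cut by a furin-type protease and secreted. It binds PTH1R, a class B G protein-coupled receptor that it shares with parathyroid hormone and that signals through cAMP and through calcium. PTH2R is a close relative that responds to parathyroid hormone and to the peptide TIP39 but scarcely to PTHrP. In bone, PTHrP released by tumour cells acts on PTH1R of osteoblasts, which then drive the formation of bone-resorbing osteoclasts, while PTH1R on the tumour cells would let them respond to their own PTHrP.

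Signals were MAS5 intensities, on a linear scale in arbitrary units, and their trimmed mean was nearly the same on every array, between 1500.4 and 1500.59. The siLuc array of experiment 1 stood apart: its Spearman correlation with the other 5 arrays across probe sets was 0.716 to 0.725, against 0.882 to 0.960 among those 5. Its median signal was 887, against 559 to 659 on the other 5. On that array 90.1% of values carried decimals, against 0% on each of the other 5. The geometric mean signal of its 18 hybridisation control probe sets was 273057, against 10838 to 41428 on the other 5. The part of these features in the differences of experiment 1 was not tested. Of 8 markers of MDA-MB-231, 5 (VIM, CD44, LGALS1, AXL and CAV1) had a percentile of signal of at least 89.0 on every array, while S100A4, SPARC and TGFBI had at most 60.2. The 8 luminal or epithelial markers, among them ESR1 and CDH1, had at most 74.4. Their summed signal was 3811 to 4740 with siPTHrP and 3264 to 6727 with siLuc, and that of 3 blood cell markers was 1680 to 1988 with siPTHrP and 2247 to 3988 with siLuc. The part of these markers in the differences below was not tested.

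PTH1R gave a moderate signal, and it was lower with siPTHrP in each of the 3 experiments as the titles number them, but the difference did not pass the test over the whole array. PTH1R had signals of 520, 539 and 792 in the siPTHrP arrays of experiments 1, 2 and 3, against 1775, 705 and 1553 in the siLuc arrays. The 3 siPTHrP arrays lay close together, whereas the siLuc arrays spread widely, with experiments 1 and 3 high and experiment 2 low. The groups overlapped, because the siPTHrP array of experiment 3 was above the siLuc array of experiment 2. The mean signal was 617 ± 152 with siPTHrP and 1344 ± 565 with siLuc (SD, n = 3 each). Within experiments 1, 2 and 3 the siPTHrP array stood at 0.299-fold, 0.770-fold and 0.515-fold of the siLuc array, taken as all fold changes here on signal + 16, siPTHrP over siLuc. The sample titled siLuc 3 carries number 2 in its description, and with the siLuc arrays of experiments 2 and 3 exchanged PTH1R was lower in 2 pairs and higher in 1 (log2 differences -1.74, -1.50 and 0.16). In RNA of a whole culture, fewer cells carrying the transcript and less transcript per cell cannot be told apart.

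For PTH1R the model with the experiment as a block gave a log2 fold change of -1.03 (SE 0.43), a signal at 0.491-fold with siPTHrP, and a 95% interval from 0.252-fold to 0.956-fold. Its unadjusted limma p was 0.0387, and the Benjamini-Hochberg adjusted p over 22215 probe sets was 0.428. With the siLuc arrays of experiments 2 and 3 exchanged these were 0.0652 and 0.600. In this comparison 0% of probe sets passed at an adjusted p under 0.05 in limma, none of the members among them, and 2513 probe sets (11.3%) had an unadjusted p under 0.05, 1529 lower (6.88%) and 984 higher (4.43%). A fold change as low as that of PTH1R or lower was found for 15.8% of probe sets. The median log2 fold change over all probe sets was -0.16, and PTH1R stood 0.86 below it (a log2 difference of -0.86). The fold change itself was -0.82 on the log2 scale with quantile normalization (limma adjusted p = 0.646) and -0.70 with median centring (limma adjusted p = 0.493). Without experiment 1, which holds the siLuc array that stood apart, the log2 fold change of PTH1R was -0.67 (limma adjusted p = 0.565). With only that array left out and no experiment block it was -0.77 (limma adjusted p = 0.537).

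PTH2R was dim on every array, and its difference between the groups was smaller than its error. PTH2R had signals of 304, 137 and 14 in the siPTHrP arrays of experiments 1, 2 and 3, against 360.5, 281 and 23 in the siLuc arrays. Both arrays of experiment 3 were far lower than the other 4, and the groups overlapped. The mean was 152 ± 146 with siPTHrP and 222 ± 176 with siLuc (SD, n = 3 each). The log2 fold change was -0.52 (SE 0.74), with a 95% interval from 0.224-fold to 2.16-fold and a limma adjusted p of 0.768. The arrays therefore leave room for a change of PTH2R in either direction. At such low signals no direction is read from the single experiments. Being lower in all 3, as PTH1R was with the title's numbering, was shared by 25% of all probe sets. With the siLuc array of experiment 1 left out and no experiment block, the log2 fold change of PTH2R turned to 0.079 (limma adjusted p = 0.984).

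How far each receptor's probe set stood above background was read from 29 genes restricted to other tissues, such as pancreas, retina, heart and pituitary, each by its brightest probe set. Such genes should give little specific signal in a breast cancer line, although a probe set's brightness also depends on its own probes. PTH1R was brighter than 23, 22 and 26 of these 29 genes in the siPTHrP arrays of experiments 1, 2 and 3, against 26, 22 and 28 in the siLuc arrays. Its percentile among all probe sets was 47.6 to 57.2 with siPTHrP and 52.2 to 72.9 with siLuc. PTH1R was thus above the upper quartile of the other-tissue genes on all 6 arrays. The other-tissue genes were themselves lower with siPTHrP: their median signal was 277, 187 and 126 in the siPTHrP arrays of experiments 1, 2 and 3, against 390.5, 363 and 349 in the siLuc arrays. Their median log2 fold change was -0.68, with 24 of 29 below 0 and 0 past the threshold in limma, beside -1.03 for PTH1R. The median of their log2 differences was -1.07, -0.40 and -0.27 in experiments 1, 2 and 3, beside -1.74, -0.38 and -0.96 for PTH1R. The part of this shift among dim genes in the PTH1R difference was not tested. PTH2R was brighter than 15, 12 and 0 of the 29 with siPTHrP, against 14, 13 and 0 with siLuc. Its percentile was 0.774 to 35.5 with siPTHrP and 0.972 to 32.1 with siLuc. PTH2R lay within or below the quartiles of those genes on all 6 arrays, so it was not distinguishable from background, which does not show that the transcript is absent.

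**Figure D1:**
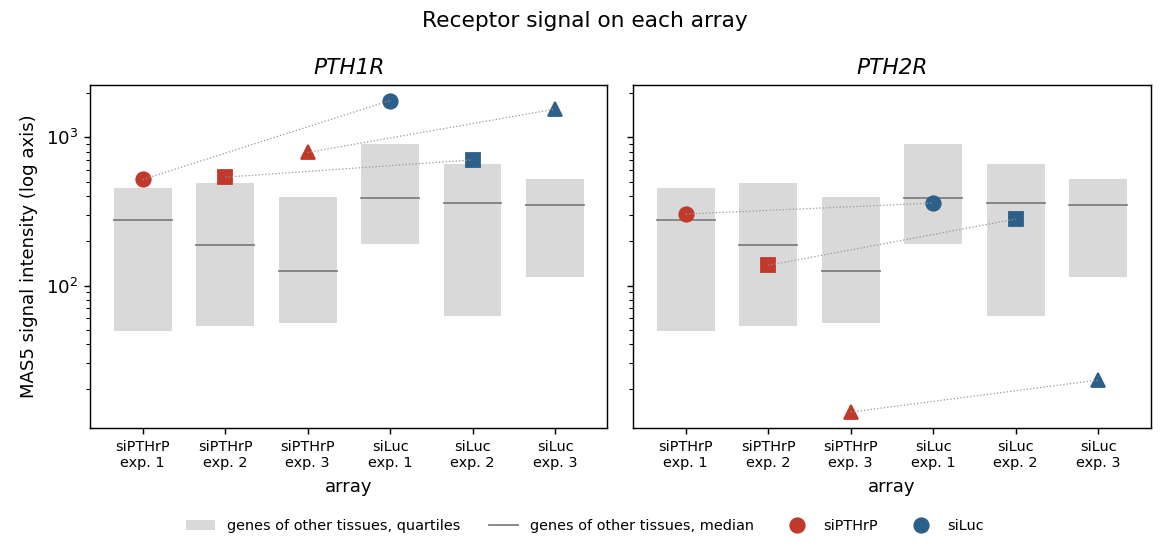
MAS5 signal of PTH1R (left panel) and PTH2R (right panel) on a log axis for the 3 siPTHrP and 3 siLuc arrays. Dotted lines join the arrays of 1 experiment, and the grey boxes and lines give the quartiles and median of 29 genes of other tissues on the same array. PTH1R lay above the boxes on all 6 arrays, and the boxes' medians, like PTH1R, were lower with siPTHrP in each experiment, while PTH2R lay within or below them.

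PTH1R and PTH2R belong to the class B1 family of peptide hormone receptors, which bind hormones such as glucagon, secretin, calcitonin and VIP. The 13 relatives on the array, each by its brightest probe set, were mostly dim, with a median percentile of 33.7 over probe sets and a range from 9.71 to 73.6. With siPTHrP 0 of 13 passed the test in either direction, 8 stood below 0 and 5 above (61.5% below, beside 59.5% of all probe sets), and the median log2 fold change was -0.20, beside -0.16 over all probe sets. The list had 3 members with an unadjusted p under 0.05, or 23.1% beside 11.3% of all probe sets, and 4 that were lower in all 3 experiments, or 30.8% beside 25% of all probe sets.

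Of these relatives, GLP1R, the receptor of the incretin GLP-1, had the smallest p. Its signals were 1007, 755 and 1615 with siPTHrP, against 2297, 2187 and 2238 with siLuc. Its groups did not overlap, as those of 12.6% of all probe sets did not in this direction, and it stood at 0.482-fold (log2 fold change -1.05, SE 0.32, limma adjusted p = 0.392). Of its 4 dimmer probe sets, 1 gave a log2 fold change of 0.11 and the other 3 were below 0. VIPR1, a receptor of vasoactive intestinal peptide, went the other way, with 1280, 653 and 617 with siPTHrP, against 252, 278 and 108 with siLuc. Its groups did not overlap either, as for 6.2% of probe sets in that direction, and it stood at 3.83-fold (log2 fold change 1.94, SE 0.64, limma adjusted p = 0.413). GLP2R, the receptor of GLP-2, was dim, at percentile 13.3 by its mean log2 signal. It was close to the bottom of the signal range at 25, 42 and 78 with siPTHrP, against 384, 98 and 407 with siLuc (log2 fold change -2.14, SE 0.78, limma adjusted p = 0.415). The GLP2R groups did not overlap, as those of 12.6% of all probe sets did not in this direction. ADCYAP1R1, the receptor of the neuropeptide PACAP, had 196, 64 and 432 with siPTHrP, against 321, 489 and 632 with siLuc, and its groups overlapped (limma adjusted p = 0.507). Differences as large as that of PTH1R were therefore met among relatives whose direction varied, and none of them passed the test.

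**Figure D2:**
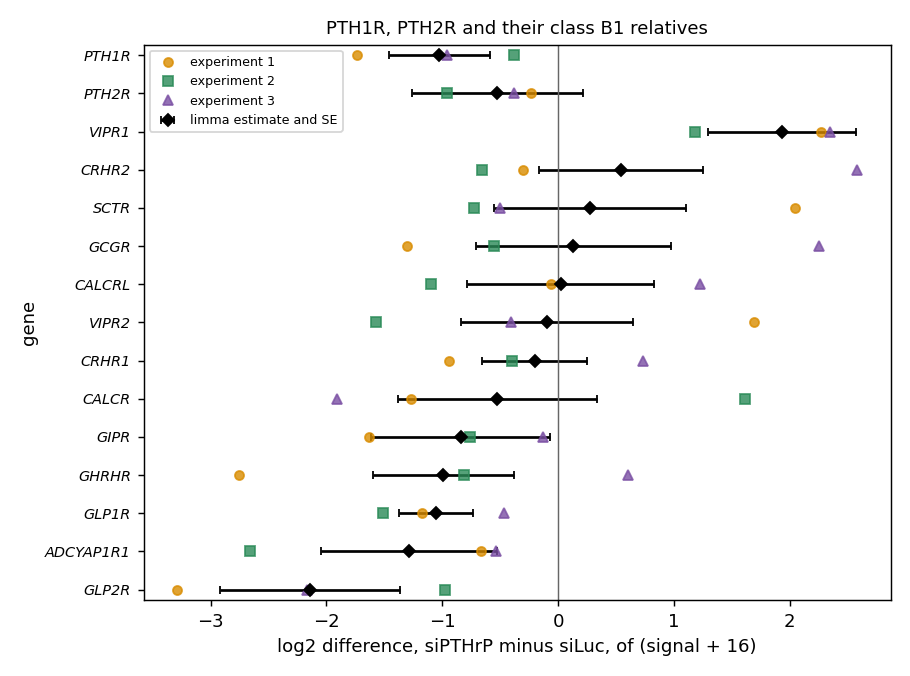
Log2 difference, siPTHrP minus siLuc, of signal + 16 for PTH1R, PTH2R and 13 other class B1 receptors. Coloured points are the 3 experiments and black diamonds with bars the limma estimate and its SE. PTH1R was below 0 in all 3 experiments as numbered in the titles, as were 25% of all probe sets. With siLuc 2 and 3 exchanged it was below 0 in 2 of 3 pairs. PTH2R was too dim for a direction to be read from single experiments. The relatives spread to both sides of 0.

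The genes around PTHrP and its receptor were taken as a list of 34, of which 31 were measured by name (PTH, PTH2 and ARRB2 were not analysed here). With siPTHrP 0 of 31 passed in either direction, and 17 stood below 0 and 14 above (54.8% below, beside 59.5% of all probe sets). The median log2 fold change was -0.12, beside -0.16 over all probe sets. At an unadjusted p under 0.05 there were 6, or 19.4% beside 11.3% of all probe sets, and 9 were lower in all 3 experiments, or 29.0% beside 25%. No member of the list was called. Its median lay near that of all probe sets, but the list was brighter than those, at a median percentile of 61.1. At or above the 40th percentile of mean log2 signal, the median of its 27 genes was -0.14, beside 0.030 over probe sets. At or above the 60th, that of its 17 genes was -0.083, beside 0.090.

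Among the 4 measured genes of ligand processing and transport, FURIN, the protease that cuts the PTHrP precursor, had the smallest p of the whole list. FURIN signals were 1218, 991 and 2036 with siPTHrP, against 3460, 1755 and 4309 with siLuc. It was lower in each experiment as titled, and in 2 of 3 pairs with siLuc 2 and 3 exchanged, and the groups overlapped through the siPTHrP array of experiment 3. The mean was 1415 ± 550 with siPTHrP and 3175 ± 1301 with siLuc (SD, n = 3 each), at 0.458-fold (log2 fold change -1.13, SE 0.27). Its unadjusted p of 0.00171 ranked 90th of 22215, and the limma adjusted p was 0.392 (0.0135 and 0.580 with the exchange). Like PTH1R, FURIN was highest in the siLuc arrays of experiments 1 and 3 and lower in that of experiment 2.

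The 11 measured G proteins and receptor partners had a median log2 fold change of -0.38, with 8 below 0. Over all probe sets the median was -0.16, with 59.5% below 0. These genes were bright, at a median percentile of 76.3. Probe sets at or above the 60th percentile of mean log2 signal had a median of 0.090. ARRB1, the beta-arrestin that binds the activated receptor and ends G protein coupling, had signals of 982, 1233 and 813 with siPTHrP, against 1852, 1722 and 2087 with siLuc. These groups did not overlap, as those of 12.6% of all probe sets did not in this direction. ARRB1 stood at 0.533-fold (log2 fold change -0.91, SE 0.32, limma adjusted p = 0.415). Its 3 dimmer probe sets gave -0.091, 0.98 and 0.38 on the log2 scale, and so did not share a direction. GNA12, a G protein alpha subunit, and GRK2, the kinase that prepares receptors for arrestin, also had an unadjusted p under 0.05, at 0.574-fold and 0.718-fold (limma adjusted p = 0.428 and 0.435), and are named after their values were seen. So is GNAS, which encodes the alpha subunit that links PTH1R to cAMP. GNAS was among the brightest probe sets of the array and had 44539, 48233 and 61444 with siPTHrP, against 44686, 64077 and 54754 with siLuc, at 0.944-fold (SE 0.18 on the log2 scale, limma adjusted p = 0.853). The other probe sets of GNAS gave log2 fold changes from -0.57 to 0.97, with both extremes from far dimmer ones. Those of GRK2, also dimmer, gave 0.29 and -0.15.

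The 16 regulators of PTHLH transcription had a median log2 fold change of 0.017, with 9 above 0 and 7 below. Over all probe sets the median was -0.16, with 59.5% below 0. TGFB1, the growth factor that bone matrix releases and that induces PTHLH in breast cancer cells, had 5010, 4576 and 5245 with siPTHrP, against 2208, 4267 and 3405 with siLuc. The siPTHrP arrays were all above the siLuc arrays, as for 6.2% of all probe sets. TGFB1 stood at 1.55-fold (log2 fold change 0.63, SE 0.24, limma adjusted p = 0.418). The other probe set of TGFB1, which was dimmer, gave -2.17 on the log2 scale, so that the TGFB1 probe sets did not share a direction. VDR, the vitamin D receptor, through which calcitriol represses PTHLH, had 109, 278 and 1672 with siPTHrP, against 2013, 533 and 2045 with siLuc, and its groups overlapped (log2 fold change -1.74, SE 0.68, limma adjusted p = 0.418). Its 3 other probe sets gave 0.083, 0.64 and -1.52.

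**Figure D3:**
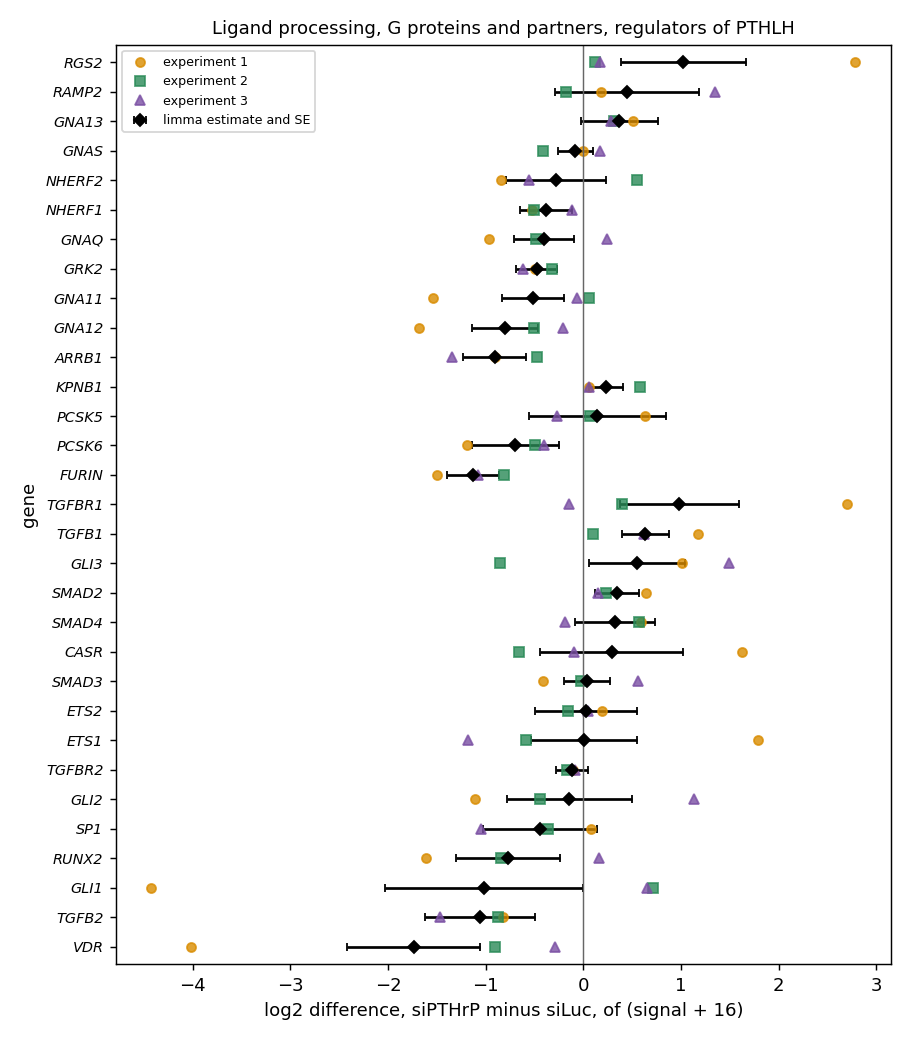
Log2 difference, siPTHrP minus siLuc, of signal + 16 for 31 genes around PTHrP, in order of role: G proteins and partners at the top (RGS2 to ARRB1), then ligand processing and transport (KPNB1 to FURIN) and regulators of PTHLH transcription (TGFBR1 to VDR). Points are experiments and black diamonds with bars the limma estimate and its SE. FURIN and ARRB1 were below 0 in all 3 experiments as titled. GLI1 had -4.43 in experiment 1 but 0.72 and 0.66 in experiments 2 and 3. VDR was below 0 in all 3 as titled, at -4.02, -0.90 and -0.29. With siLuc 2 and 3 exchanged its differences were -4.02, -2.81 and 1.62.

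Probe sets with a pattern like that of PTH1R were sought among 11771 probe sets of 1 gene with a mean log2 signal at or above the 40th percentile, by the Pearson correlation over the 6 arrays after taking out the mean of each experiment. The 5 most alike were those of MYO15B, CXADR, MCM3AP, ALKBH4 and CREBL2, with r from 0.9995 to 1.0000. With the mean of each experiment left in, their r was 0.742 to 0.976. The higher values rest on the experiment numbers of the titles. MYO15B, the closest, had log2 differences of -1.38, -0.30 and -0.74 in experiments 1, 2 and 3, beside -1.74, -0.38 and -0.96 for PTH1R. Only 3 differences carry this likeness, and 167 probe sets reached an r above 0.99, so a high r is common here and describes these arrays alone.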

How the data were processed

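The deposited values were linear signal intensities from MAS5, per the submitters' processing notes. No MAS5 version or setting was given in the sources used here. RNA was isolated with RNeasy and labelled with biotin, per the labels' protocols. MAS5 subtracts mismatch signal, so dim probe sets are noisy.

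A siLuc sample had no number and was assigned to experiment 1, the only one left. For the sample titled siLuc 3 the description gives number 2, but the title was used. Numbers mark shared experiments per the design text, so experiment was a block. Deviations from group means correlated at -0.076, 0.134 and 0.063 in same-experiment pairs 1, 2 and 3, and at -0.211 to 0.144 in the other 6.

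Of 22283 probe sets, 68 controls were left out, with no intensity filter. Probe sets with 1 annotated gene (19071) were named, with symbols updated through RefSeq. Those with several (1043) or none listed (2169) were not. log2(intensity + 16) was fitted with limma 3.58.1 in R 4.3.3 (lmFit, eBayes with intensity trend, 2 residual and 8.34 prior degrees of freedom). The fit was also run on simulated data with independent noise, without experiment effects or an array that stood apart. That run does not bear on how the fit handles the siLuc array of experiment 1. Tests were two-sided at an adjusted p of 0.05. A listed gene stood by its brightest probe set, and the 4 smallest p of each list were named. Members and lists were chosen with earlier results of these data known.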

Additional observations from a re-analysis of the deposited data

How the results depend on the processing

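Over 15 alternatives the log2 fold change of PTH1R kept its sign and stayed short of the threshold, at -1.35 to -0.67 (limma adjusted p 0.363 to 0.646). It ranged from -1.35 to -0.67 when 1 experiment was left out. Without a replicate block it was -1.03 (adjusted p = 0.484). That fit, the exchange of siLuc 2 and 3, the intensity filters, and the fits with no or a robust intensity trend could not move it. They change only the variance or the probe sets fitted, so in them the sign was fixed in advance. PTH2R was below 0 in 12 of 13 alternatives, down to -0.70, and turned to 0.079 when the siLuc array of experiment 1 was left out with no replicate block. It was too dim to enter under the filters at the 40th and 60th percentiles. In the other fits that could not move the fold change, PTH2R likewise stayed at -0.52. The count of 0 probe sets past the threshold became 80 with array weights. Those weights were equal for both arrays of an experiment (0.418, 2.19 and 1.09 in experiments 1, 2 and 3). They therefore could not weigh down the siLuc array of experiment 1 alone. With 1 experiment left out the count was 8 to 159 (8 without experiment 1, 59 without experiment 2, 159 without experiment 3). These fits had fewer residual degrees of freedom. In those without experiment 2 or 3, limma took each variance from the intensity trend alone. The 59 and 159 therefore take no account of a probe set's own spread. Without a replicate block the count stayed 0. Of the axis and class B1 genes 0 passed in every alternative. The axis median was 0.21 with median centring and 0.0090 without experiment 2. The class B1 median was 0.12 with median centring, 0.069 with quantile normalization and -0.67 without experiment 3. The split of probe sets with an unadjusted p under 0.05 was 2178 higher and 652 lower with median centring, 949 and 810 with quantile normalization, and 372 and 1747 with no intensity trend. PTHLH was not analysed here under any setting.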
